A study of Mus musculus with 48 samples.

Results

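The cytosolic ribosomal protein genes were followed through single cell transcriptomes of the mouse hypothalamus at E18.5. A gene was a member where its name was Rpl or Rps, a number and at most 1 of the letters a, l or x, or was *Rpsa*, *Rplp0*, *Rplp1* or *Rplp2*; rows with the pseudogene ending -ps and the *Rps6k* kinase genes were left out. The rule was met by 78 of the 16510 genes counted. These 78 genes held 3206495 of the 74487617 unique molecular identifiers (UMIs) in the table, or 4.30%. A UMI is the tag that marks a single captured RNA molecule.

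Ribosomal proteins assemble with ribosomal RNA into the small (*Rps*) and the large (*Rpl*) subunit of the ribosome, the machine that translates messenger RNA in every cell. Growing and dividing cells make ribosomes at a high rate. The messenger RNAs of these genes commonly begin with a run of pyrimidines, the terminal oligopyrimidine motif, through which mTOR signalling and the RNA-binding protein Larp1 regulate their translation.

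Control embryos were *Eed* fl/fl, and *Eed-cKO* embryos were *Eed* fl/fl; *Sox1-Cre*/+, so both groups carried the floxed alleles and only the second carried the recombinase; stocks were kept on a mixed *B6:129S1* background. *Eed* encodes a core subunit of polycomb repressor complex 2. *Cre* stands in the *Sox1* locus and acts across the early central nervous system, so blood vessel, meningeal and immune cells were not expected to be targeted. The hypothalamus of each embryo was cut into pieces before dissociation, which gave 22 libraries from 6 control embryos (2 female, 4 male) and 26 libraries from 9 *Eed-cKO* embryos (5 female, 4 male). The embryo was taken as the replicate.

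The table held 14121 cells. Control embryos had 1042 to 1664 cells and 5363119 to 7487417 UMIs each, and *Eed-cKO* embryos 217 to 1111 cells and 658175 to 6299181 UMIs. Cell kinds were rebuilt by clustering without the member genes and named from marker genes as "-like", and 13293 cells outside the non-neural kinds form the All-Hypo set. The first part of the library names never covered both genotypes (0 of 10 name parts), so genotype and whatever that part stands for cannot be told apart. Cell barcodes were shared between libraries for 203 cells. Levels of single genes are given as CPM, normalised UMIs scaled to 1000000 per embryo and cell kind. *Eed* itself was lower in All-Hypo cells of *Eed-cKO* embryos (control 29.3, 32.7 and 33.7 CPM as lowest, median and highest; *Eed-cKO* 19.4, 22.7 and 27.8), with no overlap between the groups.

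Of the 78 members, 74 held between 8040 and 111147 UMIs and passed the filter on low counts. The other 4 were almost absent from the table: *Rps27* with 151 UMIs, *Rpl34* with 125, *Rpl39l* with 24 and *Rpl30* with 21. Exact copies in other annotated transcripts were counted for the last 400 bases of each member, in words of 64 bases. Of those words, 98.6% were copied elsewhere for *Rps27*, 65.6% for *Rpl30*, 56.4% for *Rpl34* and 0% for *Rpl39l*, and the part of such copies in the low counts was not tested. Among all members only 12 had no copied word and 4 had 99% or more copied, so single-gene values below carry the uncertainty of shared sequence. *Rplp1*, which encodes an acidic stalk protein of the large subunit, held the most UMIs, 3.47% of all member UMIs. Reads came from the 3′ end, so levels are compared between cells and not between genes.

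The members lay on 19 chromosomes, and 29 of them contained 56 annotated genes for small nucleolar RNAs, the guides of ribosomal RNA modification, within their bounds. RefSeq promoter windows, from 250 bases before to 50 after the annotated start, were matched for 57 members. From 10 bases before to 50 after the start, a C followed by at least 5 more C or T was found on the gene's strand in 49 of the 57 (86.0%), against 42.9% of all 27025 gene symbols with a window and 42.2% of the other genes counted here. CCGGAAG, searched on both strands over the whole window, was present in 24 of the 57 (42.1%) against 9.93% of all symbols and 16.7% of the other genes counted here. TATAAA within the 50 bases before the start was present in 0 of 57 against 3.15% of all symbols and 2.38% of the other genes counted. Windows of 30 bases are printed for 8 members whose values are described below, each 5′ to 3′ on the gene's strand in GRCm38.p6. Capitals mark the longest such run within the searched stretch; the run of *Rps27l* begins at its first base, and pyrimidines before it were not searched.
Rps13 (chr7:116334161-116334190, minus strand): tgagtggcgtcaCTTCCTgtgcggcttgat
Rps15a (chr7:118116129-118116158, minus strand): ctttctgccatCTTCCCTCgccggtgagtg
Rps6 (chr4:86857349-86857378, minus strand): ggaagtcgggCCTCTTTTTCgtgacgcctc
Rpl13 (chr8:123102366-123102395, plus strand): agattggccggaCTCCCTacaagcccaggg
Rpl15 (chr14:18270968-18270997, minus strand): gagaaagCCTTCTTCCTTTCCTCTggcggc
Rps27l (chr9:66946064-66946093, plus strand): ctcctctccactCCTCCCCgccgcctctat
Rps12 (chr10:23787182-23787211, minus strand): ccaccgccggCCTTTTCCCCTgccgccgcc
Rpl38 (chr11:114668569-114668598, plus strand): gaagcctcgttCTTTCCCCgttctcttcgg
Runs of 6 bases (*Rps13*, *Rpl13*) to 17 bases (*Rpl15*) are seen, and the run length is given only as a description of these windows. Their first base lies from 10 bases before the annotated start (*Rps27l*) to 28 bases after it (*Rpl13*). A run counted here therefore need not stand at the start of the messenger RNA.

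The share of UMIs taken by the members differed by cell kind. In control embryos it was 3.76% ± 0.369 (SD, n = 6) in neuron-like cells and 3.55% ± 0.545 (n = 6) in astrocyte-like cells, and their ranges overlapped. Cycling progenitor-like cells, with 6.12% ± 0.767 (n = 6), lay wholly above both, at 5.40% or more in every embryo. That cluster was led by *Sox10* and *Gpr17* and raised 7 oligodendrocyte precursor markers beside 10 cycling markers. Its values are therefore those of a mix of such cells. Non-neural cells together held 7.09% ± 0.0521 (n = 6). Among them, endothelial-like cells held 7.08% ± 0.306 (n = 6), leptomeningeal fibroblast-like cells 7.15% ± 0.284 (n = 3), and microglia- or macrophage-like cells 8.41% ± 1.00 (n = 4), whereas pericyte- or smooth muscle-like cells held 5.52% ± 0.506 (n = 3). Tanycyte-like cells, radial glia-like cells that line the third ventricle, held 6.64% ± 1.27 (n = 4). Ependymal-like cells reached 10 cells in 2 control embryos, with 2.46 and 3.64%. In the order of the control means, neighbouring kinds overlapped except at the step from neuron-like (at most 4.46%) to pericyte-like cells (at least 5.05%) and at the step from leptomeningeal (at most 7.48%) to microglia-like cells (at least 7.52%). No test was run on these shares, since the members were chosen with earlier results of these data known.

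**Figure D1:**
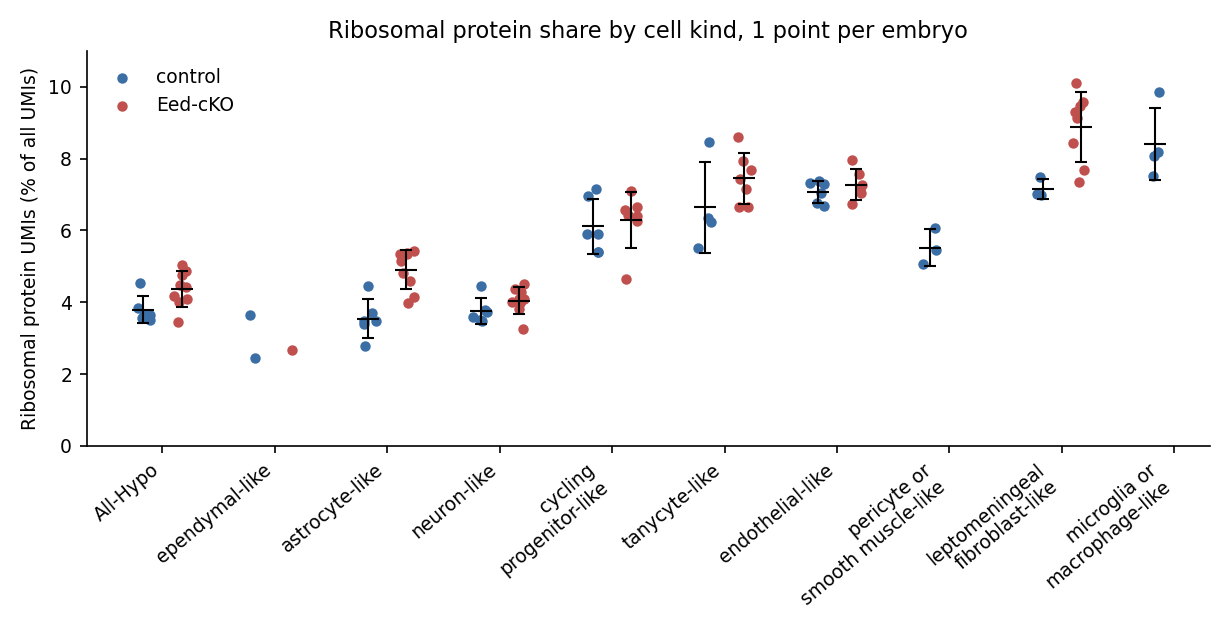
Share of all UMIs held by the 78 ribosomal protein genes (percent) in each cell kind, with 1 point per embryo of at least 10 such cells; horizontal bars and whiskers are the mean and SD over embryos. Neuron- and astrocyte-like cells lie between 2.77 and 5.43%, ependymal-like cells between 2.46 and 3.64%, and the cycling, tanycyte-like and non-neural kinds at 4.64% or more.

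Between genotypes, the share in All-Hypo cells was 3.52, 3.65 and 4.54% (lowest, median and highest) in control embryos and 3.45, 4.42 and 5.03% in *Eed-cKO* embryos. The means differed by 0.570 percentage points and the ranges overlapped; control embryo 5 was the highest control and *Eed-cKO* embryo 9, the embryo of 217 cells, the lowest mutant. With both of these set aside, the ranges were 3.52 to 3.84% and 4.01 to 5.03%; the 2 embryos were picked for their values, so that separation is only a description. Over all cells, the 3 libraries of control embryo 5 ranged from 3.69 to 5.14% and the 3 libraries of *Eed-cKO* embryo 8 from 3.35 to 5.23%.

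The size of the difference was read in each cell kind. In neuron-like cells the share was 3.47, 3.66 and 4.46% in controls and 3.24, 4.09 and 4.50% in *Eed-cKO* embryos, a difference of means of 0.289 points with overlap. In astrocyte-like cells it was 2.77, 3.48 and 4.46% against 3.99, 5.15 and 5.43%, a difference of 1.36 points, with overlap between 3.99 and 4.46%. In cycling progenitor-like cells the means differed by 0.169 points (6.12% against 6.29% ± 0.772, n = 7). In non-neural cells, where *Cre* was not expected to act, the share was 7.04 to 7.18% in controls and 7.16 to 9.18% in *Eed-cKO* embryos (8.14% ± 0.645, n = 8). The mix of this pool differed. Controls held 149 endothelial-like, 89 leptomeningeal, 58 pericyte-like and 51 microglia-like cells, and *Eed-cKO* embryos 123, 268, 43 and 47. The part of this mix in the pooled share was not tested. Leptomeningeal fibroblast-like cells were at 6.98 to 7.48% in 3 control embryos and 7.35 to 10.1% in 8 *Eed-cKO* embryos, and endothelial-like cells held 6.67 to 7.39% and 6.72 to 7.95%. Within the largest leptomeningeal cluster, led by *Ptgds*, *Slc6a13* and *Slc22a6*, controls held 5.19 to 5.79% and *Eed-cKO* embryos 7.31 to 10.1%; a smaller cluster led by *Nov*, *Lypd2* and *Slc47a1* reached 10 cells in control embryos only and held 10.4 to 11.4%.

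Marker levels, here per 1000000 UMIs with no further scaling, were read beside these shares. In astrocyte-like cells the summed level of 8 leptomeningeal markers was 15.01 to 77.9 in controls and 476 to 809 in *Eed-cKO* embryos (8 of 8 markers with a higher mean), that of 8 tanycyte markers was 252 to 789 against 930 to 2209 (6 of 8 higher), and that of 11 astrocyte markers was 12343 to 26203 against 9265 to 18811, with 5 markers higher and 6 lower by their means. In neuron-like cells the leptomeningeal list stood at 3.90 to 10.9 against 14.3 to 46.5 (7 of 8 markers higher). The 12 neuron markers summed to 11405 to 12189 against 10593 to 11598, although 8 had a higher and 4 a lower mean in *Eed-cKO* embryos. In cycling progenitor-like cells 7 oligodendrocyte precursor markers summed to 3385 to 5909 in controls and 1196 to 4901 in *Eed-cKO* embryos (7 lower by their means). The 10 cycling markers there summed to 1740 to 3966 against 2476 to 4817 (10 higher). Both pairs of ranges overlapped. Neuron-like cells made up 63.1 to 85.2% of All-Hypo cells in controls and 65.1 to 81.9% in *Eed-cKO* embryos, astrocyte-like cells 2.93 to 6.67% and 4.55 to 12.0%, and tanycyte-like cells 0.667 to 1.75% and 1.37 to 4.76%. Cells of unnamed clusters made up 8.28 to 25.05% in controls and 5.16 to 24.4% in *Eed-cKO* embryos. Among them were clusters of *Eed-cKO* cells only, described below. The part of these differences in the ribosomal protein shares was not tested.

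Single members were then compared between genotypes over embryo sums in All-Hypo cells, with the quasi-likelihood test of edgeR adjusted over all genes tested. Of the 74 members, 31 (41.9%) were higher in *Eed-cKO* embryos at an adjusted p under 0.05, where 15.3% of all 12545 genes tested were, and 2 (2.70%) were lower, where 12.4% of all genes were; in either direction 27.7% of all genes were called. With limma's TREAT test against a log2 difference of 0.18, the criterion of the study's methods, 9 members were higher (8.76% of all genes), and without control embryo 5 and *Eed-cKO* embryo 9 edgeR called 49 (17.2% of all genes). The median log2 difference was 0.20 over the members and 0.01 over all genes. Groups did not overlap for 5 members (*Rpl13*, *Rpl7*, *Rpl7a*, *Rps13* and *Rps15a*), a pattern shown by 6.70% of all genes tested.

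The largest rise belonged to *Rpl13*, a large subunit protein. Its level was 287, 316 and 421 CPM in controls (lowest, median, highest) and 428, 506 and 695 in *Eed-cKO* embryos, a log2 difference of 0.58 (SE 0.11, adjusted p = 0.000303). Every mutant embryo lay above every control. *Rpl19*, another large subunit protein, went from 214, 263 and 365 to 341, 396 and 561 (0.58, SE 0.12, adjusted p = 0.00152), with overlap. *Rps6*, the small subunit protein phosphorylated downstream of mTOR, stood at 135, 172 and 244 in controls and 218, 245 and 326 in mutants (0.54, SE 0.11, adjusted p = 0.000814), with overlap through control embryo 3, the highest control. *Rplp0*, the base of the ribosomal stalk, stood at 528, 617 and 866 against 761, 920 and 1183 (0.54, SE 0.12, adjusted p = 0.00189). *Rpl8*, *Rpl10*, *Rps9* and *Rpl6* completed the 8 largest rises, with log2 differences of 0.50, 0.48, 0.46 and 0.45.

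Members fixed for their role are given next, whether called or not. *Rplp1* and *Rplp2*, the acidic partners of *Rplp0* on the stalk, had log2 differences of 0.15 (adjusted p = 0.386) and 0.19 (adjusted p = 0.222). *Rpl5* and *Rpl11*, which with the 5S RNA bind Mdm2 and link ribosome assembly to p53, were both called higher, by 0.19 (SE 0.06, adjusted p = 0.0318) and 0.23 (SE 0.08, adjusted p = 0.0435). *Rpsa*, known also as the laminin receptor, was higher by 0.41 (adjusted p = 0.00729), and *Rpl3*, a core protein of the peptidyl transferase region, by 0.35 (adjusted p = 0.00263). *Rps27a*, whose product is made as a fusion with ubiquitin, was not called (0.17, adjusted p = 0.277).

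X-linked and duplicated members were looked at beside their partners. *Rps4x* was called higher by 0.30 (adjusted p = 0.0253) while *Rps4l*, which the annotation used here lists as a processed pseudogene that is transcribed, was not (0.17, adjusted p = 0.392). *Rps27l*, a paralog of *Rps27* and a known p53 target, was called higher by 0.28 (SE 0.09, adjusted p = 0.0197), from 90.7, 98.1 and 119 to 95.9, 120 and 144 CPM with overlap; *Rps27* itself was not testable. *Rpl39* and *Rpl38*, both very short proteins, had negative differences that were not called (-0.33, adjusted p = 0.169 and -0.30, adjusted p = 0.156). *Rpl38*, known for its role in the translation of Hox messenger RNAs, stood at 264, 353 and 498 in controls and 171, 292 and 413 in *Eed-cKO* embryos, with overlap.

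*Rps13* and *Rps15a*, both small subunit proteins, were the members called lower. *Rps13* was at 508, 520 and 622 CPM in All-Hypo cells of controls and at 97.5, 246 and 327 in *Eed-cKO* embryos, a log2 difference of -1.10 (SE 0.13, adjusted p = 2.86e-06). *Rps15a* was at 394, 443 and 480 against 149, 249 and 300, a difference of -0.85 (SE 0.11, adjusted p = 3.93e-06). For both genes all 9 mutant embryos lay below all 6 controls.

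Both genes were also called lower in neuron-like, astrocyte-like and cycling progenitor-like cells and in the pooled non-neural cells. In neuron-like cells the log2 differences were -1.195 (*Rps13*, adjusted p = 8.98e-08) and -0.89 (*Rps15a*, adjusted p = 2.12e-07), in astrocyte-like cells -0.66 (adjusted p = 0.00242) and -0.64 (adjusted p = 0.00493), and in cycling progenitor-like cells -0.97 (adjusted p = 0.00103) and -0.86 (adjusted p = 0.00388). Embryos of the groups overlapped for both genes in astrocyte-like cells (*Rps13* 392 to 550 CPM in controls, 192 to 433 in *Eed-cKO* embryos). They also overlapped for *Rps15a* in cycling progenitor-like cells (478 to 951 against 252 to 577). Non-neural cells were added to the comparison after this pattern had been seen. There *Rps13* was at 714, 811 and 854 CPM in controls and 365, 402 and 612 in *Eed-cKO* embryos (-0.92, SE 0.14, adjusted p = 0.000979), with no overlap. *Rps15a* was at 574, 752 and 977 against 355, 514 and 581.6 there (-0.61, SE 0.16, adjusted p = 0.0339), with overlap between 574 and 581.6. The difference between the fall in non-neural and that in neuron-like cells was 0.18 (SE 0.14, adjusted p = 0.673) for *Rps13* and 0.24 (SE 0.15, adjusted p = 0.574) for *Rps15a* by the interaction test of edgeR, which called neither. *Eed* stood at 24.6 to 47.9 in controls and 7.05 to 61.2 in *Eed-cKO* embryos in the same non-neural cells and was not called (log2 difference -0.84, adjusted p = 0.220).

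**Figure D2:**
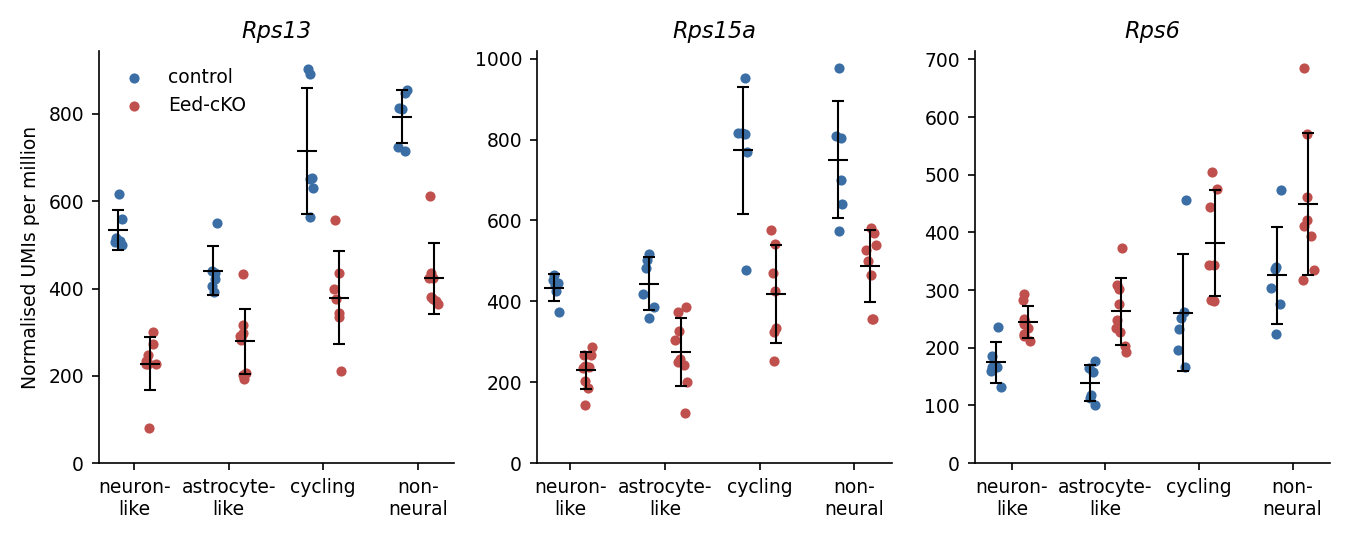
Normalised UMIs scaled to 1000000 (CPM) of *Rps13*, *Rps15a* and *Rps6* in 4 cell kinds, with 1 point per embryo and the mean and SD over embryos as bars. *Rps13* and *Rps15a* have lower means in *Eed-cKO* embryos in all 4 kinds, including non-neural cells, where *Rps13* reaches 612 at most against 714 at least in controls. Embryos of the groups overlap for both genes in astrocyte-like cells and for *Rps15a* in cycling and non-neural cells. *Rps6* is plotted as a member with higher mutant means.

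Both genes lie on chromosome 7 of GRCm38: *Rps13* at chr7:116331505-116334195 and *Rps15a* at chr7:118104372-118116188, each on the minus strand. *Eed* is on the same chromosome at chr7:89954654-89980983, 26.4 Mb from *Rps13* and 28.1 Mb from *Rps15a*. Of the last 400 bases, 86.9% of words for *Rps13* and 64.4% for *Rps15a* had an exact copy in another annotated transcript. Genes whose bounds lie within 1000000 bases were read for comparison. *Arl6ip1*, within that distance of *Rps15a*, was lower by a log2 difference of -1.04 in All-Hypo cells (adjusted p = 5.00e-10) and -1.26 in non-neural cells (adjusted p = 6.03e-05). *Smg1* was at -0.42 in All-Hypo cells (adjusted p = 0.000118) and -0.00 in non-neural cells (adjusted p = 1.00), whereas *Gprc5b* was higher by 1.61 and 1.70 (adjusted p = 4.94e-06 and 0.00982). *Pik3c2a*, near *Rps13*, was called higher in All-Hypo cells (0.29, adjusted p = 0.0408), and none of the other neighbours was called in either set. These 4 neighbours were named after their values were seen, and the position of a gene was not tested against its difference.

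In neuron-like cells, 20 of the 74 members (27.0%) were called higher in *Eed-cKO* embryos against 8.22% of all 11938 genes tested, and the same pair was lower (2.70%, against 7.30%). Leaving out 1 embryo gave 2 to 6 lower members, with 4 without control embryo 3 and 6 without *Eed-cKO* embryo 5. The median log2 difference of the members was 0.14 and that of all genes 0.01. Groups did not overlap for 3 members (*Rpl7a*, *Rps13*, *Rps15a*), against 3.53% of all genes. *Rpl19*, *Rpl13*, *Rpl10* and *Rps6* led the rises with 0.51, 0.50, 0.49 and 0.49, followed by *Rplp0* (0.44), *Rpl8* (0.41), *Rpl6* (0.40) and *Rpsa* (0.38). A neuron-like cluster led by *Tfap2b* and Hox genes held 1476 cells, of which 15 were control; without it, 24 members were higher and 2 lower, against 6.62% and 6.08% of all genes. *Rpl3* was called too (0.28), whereas *Rplp1* (0.03), *Rplp2* (0.10), *Rpl5* (0.12), *Rpl11* (0.18), *Rps27a* (0.09), *Rps4x* (0.26), *Rps4l* (0.19), *Rps27l* (-0.08), *Rpl38* (-0.32) and *Rpl39* (-0.39) were not.

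In astrocyte-like cells, 40 members (54.1%) were called higher, against 7.77% of all 12150 genes tested, and the pair was again lower (2.70%, against 5.13%). The median log2 difference was 0.48 over the members and -0.02 over all genes. When cells were clustered with all genes, the astrocyte-like kind was split and took in 294 tanycyte-like cells. A cluster led by *Gfap*, *Aqp4* and *Slc14a1* then held 9 control and 368 *Eed-cKO* cells, and the other held 408 and 397. The part of this split in the calls was not tested. *Rpl10a*, a large subunit protein, showed the largest rise, from 33.8, 60.6 and 104 CPM to 41.3, 134 and 216, a log2 difference of 1.13 (SE 0.24, adjusted p = 0.000812) with overlapping embryos. *Rps6* rose from 101, 138 and 177 to 192, 249 and 373 (0.88, SE 0.18, adjusted p = 0.000314) and *Rps27l* from 162, 187 and 193 to 207, 309 and 486 (0.80, SE 0.16, adjusted p = 0.000344), each without overlap. There was no overlap between the groups for 8 members, among them *Rpl13*, *Rpl3*, *Rpl8*, *Rpl9*, *Rps27l*, *Rps6* and *Rps9*, against 2.80% of all genes. The remaining large rises were *Rplp0* (0.85), *Rpl8* (0.84), *Rpl13* (0.84), *Rpl19* (0.83) and *Rpl14* (0.78).

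Here the stalk proteins were all called: *Rplp1* was higher by 0.58 (adjusted p = 0.00883) and *Rplp2* by 0.48 (adjusted p = 0.0220). So were *Rpl3* (0.68), *Rpsa* (0.66), *Rpl10* (0.61), *Rps4x* (0.56), *Rps27a* (0.50), *Rpl5* (0.45) and *Rpl11* (0.43). *Rps4l* (0.51), *Rpl38* (-0.07) and *Rpl39* (-0.10) were not.

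Cycling progenitor-like cells gave 0 members called higher by edgeR, against 2.50% of all 10821 genes tested, and the same pair lower (2.70%, against 1.08%), with 3.58% of all genes called in either direction. At an unadjusted p under 0.05, 5 members were higher and 4 lower, and DESeq2 called 0 higher and 3 lower. These counts are given without the shares of all genes at the same settings. The median log2 difference was 0.04 over the members and 0.02 over all genes. Only *Rps13* had groups that did not overlap, against 0.906% of all genes. The marker levels of these cells given above differed between the genotypes, and their part in these counts was not tested. Among the members named for their role, *Rps27l* (0.54, adjusted p = 0.132), *Rps4l* (0.58, adjusted p = 0.492), *Rps6* (0.48, adjusted p = 0.292), *Rplp0* (0.46, adjusted p = 0.226) and *Rpsa* (0.37, adjusted p = 0.371) had the larger positive values. *Rplp1*, *Rpl10*, *Rps27a*, *Rpl5*, *Rpl11*, *Rpl3* and *Rplp2* lay between 0.03 and 0.26, and *Rps4x*, *Rpl39* and *Rpl38* at -0.02, -0.19 and -0.29.

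In non-neural cells, 3 members were higher (4.05%, against 1.47% of all 12411 genes tested) and 3 lower (4.05%, against 1.36%), with 2.83% of all genes called in either direction. DESeq2 called 15 higher and 4 lower, against 2.14% and 1.80% of all genes. The mix of non-neural kinds given above differed between the genotypes, and its part in these calls was not tested. *Rpl10*, an X-linked large subunit protein, was higher by 0.77 (SE 0.17, adjusted p = 0.0148), *Rps4x* by 0.57 (SE 0.15, adjusted p = 0.0387) and *Rpl14* by 0.55 (SE 0.13, adjusted p = 0.0181). *Rpl38* joined *Rps13* and *Rps15a* among the falls, from 554, 877 and 1256 CPM to 430, 592 and 673 (-0.70, SE 0.17, adjusted p = 0.0283), with overlap. Groups did not overlap for 6 members, among them *Rpl13*, *Rpl14*, *Rpl21*, *Rps13* and *Rps27l*, against 1.31% of all genes. In endothelial-like cells alone, edgeR called 0 members higher and 1, *Rps13*, lower, against 0.194% and 0.102% of all 9792 genes tested; *Rps15a* (-0.78) was not called there. The comparisons in All-Hypo, neuron-like and other cells draw on the same control embryos and partly on the same cells, and their counts are not independent of each other.

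Whether the genotype difference itself was larger in astrocyte-like than in neuron-like cells was tested directly. The interaction of genotype and cell kind was positive for 14 of 74 members (18.9%, against 3.24% of all 12395 genes tested) and negative for 0, against 3.25%, with 6.49% of all genes called in either direction. At an unadjusted p under 0.05, 55 members were positive and 0 negative, and DESeq2 called 29 positive and 0 negative. The shares of all genes at these settings are not given here, so these counts have no base to be read against. The members with the largest interaction were *Rps27l* (0.88, SE 0.15, adjusted p = 6.64e-05), *Rpl10a* (0.81, SE 0.21, adjusted p = 0.00962) and *Rpl12* (0.63, SE 0.15, adjusted p = 0.00438), followed by *Rplp1* (0.55), *Rps13* (0.54), *Rps18* (0.54), *Rpl41* (0.53) and *Rps19* (0.51). The marker levels of astrocyte-like cells given above differed between the same embryos, and their part in these calls was not tested. For *Rps27l* the values side by side were 82.9, 88.5 and 108 CPM in control neurons, 70.6, 82.6 and 108 in *Eed-cKO* neurons, 157, 181 and 189 in control astrocyte-like cells and 203, 305 and 477 in *Eed-cKO* astrocyte-like cells. The astrocyte-like groups did not overlap and the neuron-like groups did. For *Rps13* a positive value means a smaller fall in astrocyte-like than in neuron-like cells. The same test between non-neural and neuron-like cells called 0 of 75 members in either direction by edgeR (0.743% and 1.17% of all 12521 genes tested, 1.91% in all). At an unadjusted p under 0.05, 6 were positive and 2 negative, and DESeq2 called 1 in each direction, with no shares of all genes given for these.

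The members' differences were set against the length of their coding sequence, which the rule did not use. Over the 73 members with a coding length and a test in All-Hypo cells, the log2 difference rose with length (Pearson r = 0.54, Spearman rho = 0.73, across genes, which are not independent replicates and share the same libraries). Over the 11664 other genes the values were -0.06 and -0.07. The same relation was 0.57 and 0.78 in neuron-like cells, 0.50 and 0.66 in astrocyte-like cells, 0.34 and 0.51 in cycling progenitor-like cells and 0.50 and 0.69 in non-neural cells.

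Split at the median of 453 bases, the 38 longer members had 27 higher and 0 lower calls in All-Hypo cells and a median log2 difference of 0.31. The 35 shorter members had 4 higher and 2 lower calls and a median of 0.02. Over all genes tested in these cells, 15.3% were called higher and 12.4% lower, and shares within these lengths are not given. The shorter members' share of higher calls did not exceed that of all genes. The summed UMIs of the shorter members over those of the longer members gave a ratio of 0.883, 1.07 and 1.13 in controls and 0.570, 0.873 and 0.960 in *Eed-cKO* embryos. The lowest ratios were those of *Eed-cKO* embryos 9, 8, 6 and 7 (0.570, 0.729, 0.767 and 0.818). Embryos 8 and 9 shared the first part of their library names, and so did embryos 6 and 7. The other *Eed-cKO* embryos lay at 0.873 to 0.960. Control embryo 3, the only embryo with its name part, was the lowest control at 0.883 and lay within that range. The part of the name parts in these ratios was not tested. Leaving out *Rps13* and *Rps15a*, the ranges were 0.839 to 1.07 and 0.559 to 0.936. Other genes at least as high as the lowest member, divided at the same length, gave 0.171 to 0.209 in controls and 0.175 to 0.247 in *Eed-cKO* embryos. In non-neural cells the members' ratio was 1.01 to 1.28 in controls and 0.862 to 1.13 in *Eed-cKO* embryos.

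**Figure D3:**
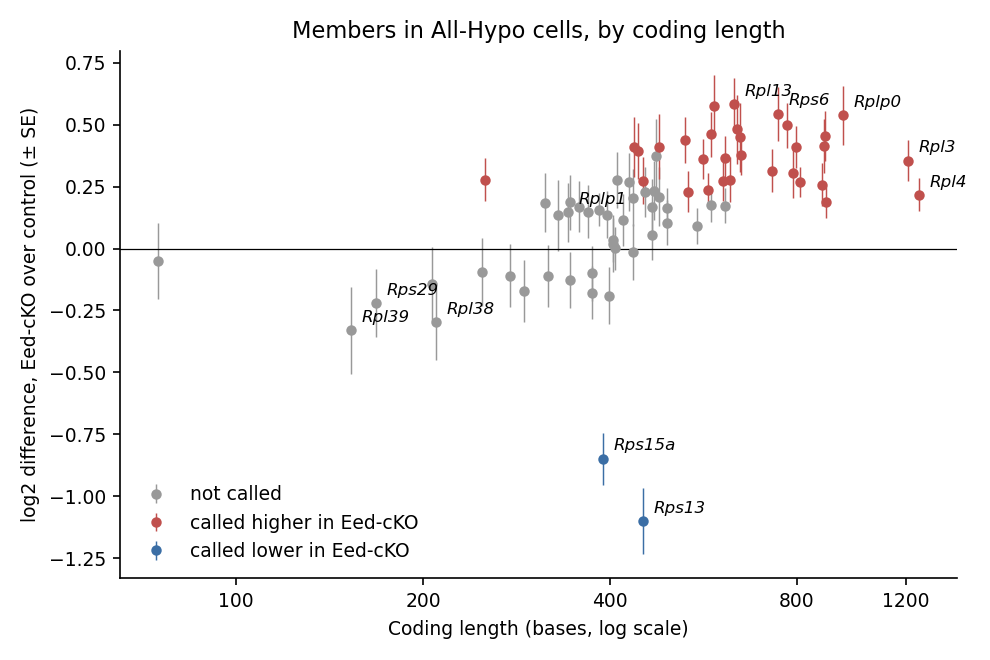
Log2 difference between *Eed-cKO* and control in All-Hypo cells (vertical axis, with the SE as error bar) against coding length in bases (log scale) for 73 members; colours mark calls at an adjusted p under 0.05. Members longer than 453 bases lie mostly above 0 and hold 27 of the 31 higher calls, and *Rps13* and *Rps15a* lie apart at -1.10 and -0.85. Over all genes tested, 15.3% were called higher.

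The make-up of the ribosomal protein pool was read by subunit. Large subunit genes held 52.8 to 55.0% of member UMIs in All-Hypo cells of controls and 54.3 to 56.0% in *Eed-cKO* embryos. The 3 stalk proteins (*Rplp0*, *Rplp1*, *Rplp2*) held 6.52 to 7.49% and 7.01 to 8.01%. Both pairs of ranges overlapped.

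Members were next compared between cell kinds of control embryos. Neuron-like cells were compared with astrocyte-like cells over sums paired by embryo. In neuron-like cells 24 of 74 members (32.4%) were higher, against 28.1% of all 12159 genes tested, and 1 (1.35%) was lower, against 23.6%; in either direction 51.7% of all genes were called. The share of higher calls was thus near that of all genes, and the median log2 difference was 0.17 against 0.12 for all genes. Groups did not overlap for 2 members, against 34.0% of all genes.

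Those were *Rpl15* and *Rps27l*. *Rpl15*, a large subunit protein, stood at 290, 336 and 405 CPM in neuron-like and at 99.9, 157 and 251 in astrocyte-like cells (log2 difference 1.07, SE 0.15, adjusted p = 6.99e-07). *Rps27l* stood at 81.7, 87.2 and 107 in neuron-like and at 155, 179 and 186 in astrocyte-like cells (-0.98, SE 0.13, adjusted p = 6.94e-07). *Rps4l* had the largest rise, 79.9, 114 and 161 against 11.2, 37.3 and 124 (1.199, SE 0.22, adjusted p = 4.07e-05), with overlap. *Rps7* (0.60), *Rpl10* (0.58), *Rpl10a* (0.56), *Rps25* (0.52), *Rpl6* (0.49) and *Rpl12* (0.47) made up the remaining leading rises. Of the words near the 3′ end, 96.7% had a copy elsewhere for *Rpl15*, 21.7% for *Rps27l* and 8.90% for *Rps4l*.

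Against cycling progenitor-like cells, 53 of 74 members (71.6%) were lower in neuron-like cells, against 17.1% of all 11730 genes tested, and 2 (2.70%) were higher, against 20.99%. The median log2 difference was -0.45 over the members and 0.11 over all genes. Groups did not overlap for 16 members, against 24.5% of all genes. *Rps27l* was lowest by -1.51 (SE 0.18, adjusted p = 9.10e-14), with 85.6, 92.8 and 111 CPM in neuron-like and 128, 281 and 330 in cycling cells. *Rpl13* (-0.91), *Rpl36a* (-0.91), *Rps20* (-0.90) and *Rps12* (-0.85) followed, then *Rps18* (-0.82), *Rpl22* (-0.82) and *Rpl13a* (-0.73). *Rpl15* (0.58, SE 0.17, adjusted p = 0.00299) and *Rps4l* (1.37, SE 0.27, adjusted p = 4.80e-06) ran against the others. In cells of 2000 to under 4000 UMIs alone, 0 members were called by edgeR in either direction, with 5.04% of the 9929 genes tested in that smaller set called. Only 2 control embryos had at least 10 cycling cells of that depth, with member shares of 4.98 and 7.04%. With so few embryos, the 0 calls cannot tell whether the difference holds at that depth.

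Against non-neural cells, 72 members (97.3%) were lower in neuron-like cells, against 26.4% of all 12438 genes tested, and 1 (1.35%) was higher, against 30.3%. The median was -0.80 over the members and 0.14 over all genes, and 57 members had groups that did not overlap, against 42.4% of all genes. *Rps20* stood at 489, 516 and 646 CPM in neuron-like and at 1455, 1556 and 1702 in non-neural cells (-1.55, SE 0.13, adjusted p = 5.62e-07). *Rps12* stood at 737, 776 and 897 against 2069, 2327 and 2605 (-1.55, SE 0.13, adjusted p = 7.81e-07). *Rps27l* (-1.44), *Rpl28* (-1.42), *Rpl38* (-1.32) and *Rps29* (-1.30) were also among the largest falls. In cells of 2000 to under 4000 UMIs alone 26 members were lower, against 13.96% of all genes. *Rpl15* was again the exception (0.79, SE 0.18, adjusted p = 0.00292), and *Rps4l* was not called (0.23, adjusted p = 0.315).

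GABA neurons (with *Slc32a1* and without *Slc17a6* UMIs) and Glut neurons (the reverse) were compared in the same way. By edgeR 2 members were higher in GABA neurons (2.70%, against 3.43% of all 11947 genes tested) and 0 were lower, against 4.96%, with 8.39% of all genes called in either direction. At an unadjusted p under 0.05, 14 were higher and 2 lower, and DESeq2 called 1 higher and 0 lower. No shares of all genes are given for these settings. *Rps4l* was at 100, 144 and 154 CPM in GABA and 60.9, 93.0 and 146 in Glut neurons (0.49, SE 0.08, adjusted p = 9.14e-05), and *Rpl13a* differed by 0.11 (SE 0.03, adjusted p = 0.0437). Both overlapped, and groups did not overlap for 0 members, against 2.92% of all genes.

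**Figure D4:**
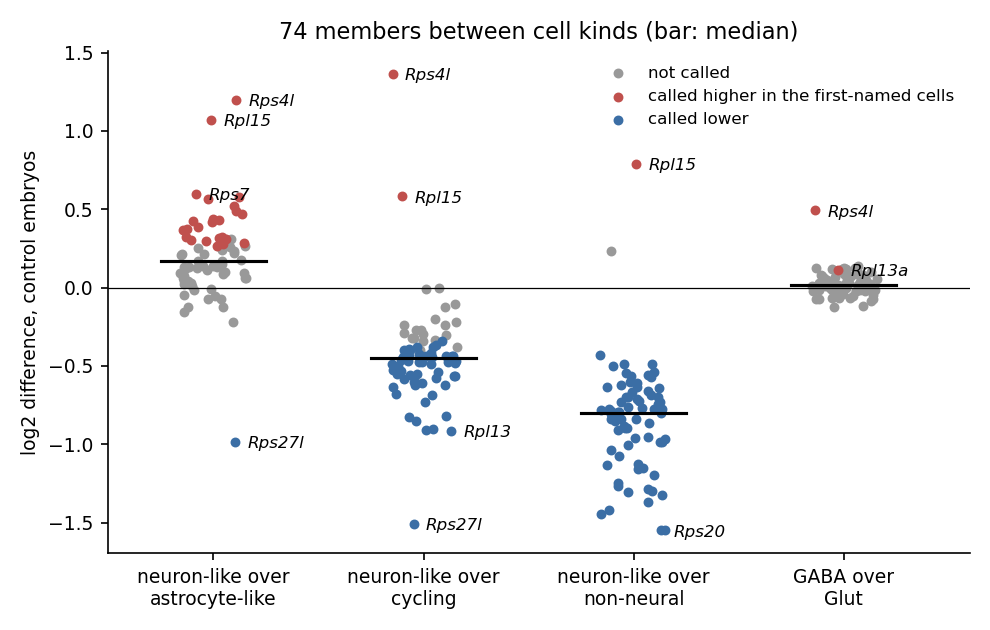
Log2 difference of each of the 74 tested members between cell kinds of control embryos; each point is a gene, the bar is the median, and colours mark calls at an adjusted p under 0.05. The medians lie at 0.17, -0.45, -0.80 and 0.02 from left to right, with *Rpl15* and *Rps4l* above and *Rps27l* below the bulk in the comparison with cycling cells.

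The share of ribosomal protein UMIs also went with the number of UMIs per cell. In neuron-like cells of control embryos it was 4.47% ± 0.489 at 1000 to under 2000 UMIs, 4.23% ± 0.410 at 2000 to under 4000, 3.87% ± 0.331 at 4000 to under 8000 and 3.51% ± 0.302 at 8000 or more (SD, n = 6). In *Eed-cKO* embryos the same bins held 4.52% ± 0.539 (n = 9), 4.41% ± 0.443 (n = 9), 4.07% ± 0.512 (n = 9) and 3.78% ± 0.238 (n = 8). The lowest bin exceeded the highest in 13 of the 14 embryos that filled both, by a ratio of 0.953, 1.22 and 1.49 (lowest, median, highest), with *Eed-cKO* embryo 5 as the exception. The share fell at every step in 11 of 15 embryos, among them all 6 controls and *Eed-cKO* embryo 9, which did not fill the highest bin; the 4 exceptions were *Eed-cKO* embryos 3, 4, 5 and 8. Within single neuron-like clusters the lower depth had the higher share in 33 of 36 pairs of embryo and cluster, with median ratios of 1.08 to 1.23 over 10 clusters. The pairs share embryos and are not independent. The lowest of these medians rested on 1 embryo and the highest on 2.

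No single member was called when neuron-like cells under 2000 UMIs were tested against those of 6000 or more in control embryos. By edgeR 0 of 74 were higher (0.731% of all 11358 genes tested) and 0 lower (3.15%), with 3.88% of all genes called in either direction; at an unadjusted p under 0.05, 3 were higher and 1 lower. The result depended on scaling, which moved the median of all genes by 0.20 with library size alone, and 15 members were then higher, against 9 with DESeq2. Shares of all genes at the unadjusted p and under these scalings are not given here. With the trimmed-mean scaling of edgeR the members' median was 0.07 and that of all genes -0.17. Groups did not overlap for 0 members, against 5.76% of all genes.

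**Figure D5:**
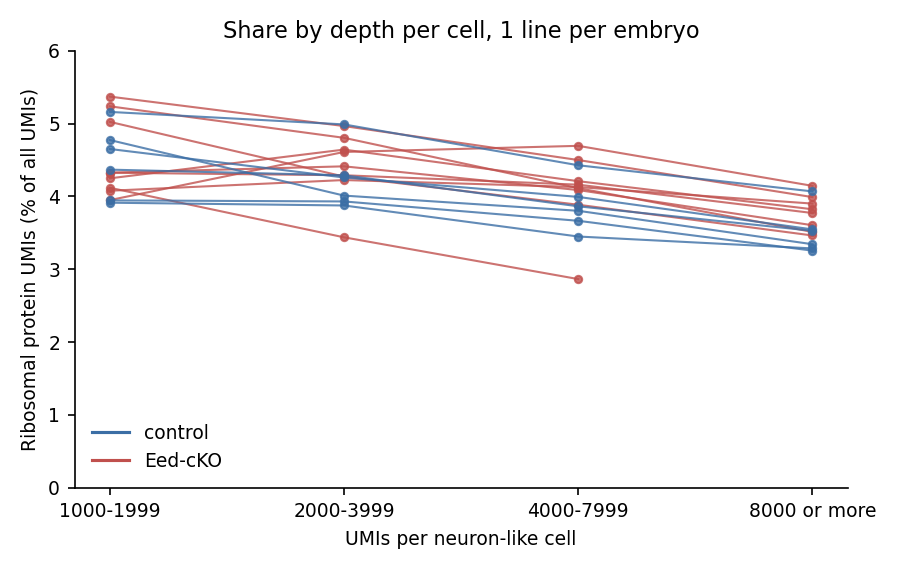
Share of all UMIs held by the 78 ribosomal protein genes (percent) in neuron-like cells, by UMIs per cell, with 1 line per embryo. Most lines fall from left to right, from 3.91 to 5.37% in the lowest bin plotted to 3.26 to 4.15% in the highest, in both genotypes.

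Astrocyte-like cells were also compared within depth bins. At 4000 to under 8000 UMIs they held 2.53, 3.43 and 4.22% in 6 control embryos and 4.26, 4.92 and 6.30% in 7 *Eed-cKO* embryos, with no overlap. At 2000 to under 4000 UMIs they held 3.43 to 4.23% (n = 4) and 4.09 to 6.62% (n = 7), with overlap. Neuron-like cells at 4000 to under 8000 UMIs held 3.45 to 4.43% and 2.87 to 4.69%.

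Clusters with few UMIs per cell stayed unnamed, as did deeper clusters that held *Eed-cKO* cells only. The deeper clusters were led by *Alas2*, *Ccno* and *Shisa8* (223 cells) and by *Ttr*, *Cga* and *Tshb* (60 cells). Members held 6.604% and 5.94% of their UMIs. Both clusters count as All-Hypo cells, so they enter the All-Hypo share of *Eed-cKO* embryos only. Their part in the genotype difference of that share was not tested. In the cluster led by *Enho*, *Arhgdig* and *Camk2n2*, members held 5.36% of UMIs over 992 cells. In the cluster led by *Rn45s*, the ribosomal RNA precursor, members held 1.47% over 560 cells and *Rn45s* stood at 726 per 1000000 UMIs. With cells of unnamed clusters removed, 25 members were higher and 2 lower in All-Hypo cells, against 12.6% and 11.6% of all genes.

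Genes that work with the ribosomal proteins were read from lists. Of 42 initiation factors, 41 were tested in All-Hypo cells and 6 were higher and 5 lower in *Eed-cKO* embryos, close to the 15.3% and 12.4% of all genes, with *Eif3f* (0.38) and *Eif1* (0.31) as the largest rises and *Eif5b* (-0.39) and *Eif2s2* (-0.30) as the largest falls. Of 11 elongation factors 3 were higher and 1 lower (*Eef1g* 0.38, *Eef1d* 0.35, *Eef1e1* -0.24). Of 58 tested genes of ribosome biogenesis, 1 was higher (*Polr1c*, 0.29) and 4 lower, led by *Nop10* (-0.49), a small nucleolar ribonucleoprotein component, and *Wdr75* (-0.36). The medians of the 3 lists were 0.01, 0.07 and -0.04.

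Of 21 tested genes whose messenger RNAs are known to carry the same pyrimidine start, 9 were higher and 0 lower, with a median log2 difference of 0.19. *Vim* (1.67), which encodes an intermediate filament protein of glia and progenitors, and *Tpt1* (0.61) led them. Among 23 regulators of mTOR and Larp1, 2 were higher (*Eif4ebp1* 1.199, *Eif4ebp3* 0.32) and 1 lower (*Mycn* -0.64). *Eif4ebp1*, an inhibitor of cap-dependent initiation, had the larger rise. The mitochondrial ribosomal proteins, a separate set, had 6 of 76 higher and 5 lower, with a median of 0.05; *Mrpl2* (0.41) and *Mrpl4* (0.38) rose most and *Mrpl50* (-0.38) and *Mrps18c* (-0.35) fell most.

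In astrocyte-like cells 10 of the 21 genes with a pyrimidine start were higher and 0 lower (median 0.36), and 3 of 11 elongation factors were higher (median 0.31), beside 7.77% higher and 5.13% lower over all genes. These lists share genes, among them *Eef1b2* and *Eef1d*, so their counts are not independent. In cycling progenitor-like cells *Vim* was the single gene called over all 6 lists. Among related genes whose names fall outside the rule, in All-Hypo cells *Rps3a1* was called higher (0.35, adjusted p = 0.0477), whereas *Fau* (0.22), *Rpl7l1* (0.19), *Rpl36al* (0.03) and *Rpl22l1* (-0.18) were not.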

How the data were processed

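Unique molecular identifier (UMI) counts per gene and cell were used as the authors deposited them; the submitters' processing notes name STAR 2.5.2b, SAMtools 1.3 and the mm10 build. The table held 0 columns of samples outside the series. Cells were clustered without member genes (scanpy 1.11.5, 2000 variable genes, 30 principal components, 15 neighbours, resolution 1, 26 clusters) and named from marker lists, so names may differ from the study's; 848 doublet candidates were kept, and left out in an alternative. Counts were summed per embryo and kind (at least 10 cells). Genes needed 15 UMIs over all sums, 2 in a sum and a median log-CPM of 1.5, and sums were scaled by trimmed means (TMM). The quasi-likelihood test of edgeR 4.0.16 (R 4.3.3) was adjusted over all genes tested at 0.05, and was tested on simulated data. Comparisons of cell kinds used the embryo as a block. Alternatives used limma 3.58.1 and DESeq2 1.42.0, other scalings, filters and cells, and embryos left out. In each comparison the 8 largest rises and falls and a list of well-known members were named; values of some single genes are not reported here. Members and lists were chosen with earlier results of these data known.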

Additional observations from a re-analysis of the deposited data

Results flagged for a closer look

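Of 64 groups of 4 to 10 embryos tested with Dixon's criterion, 12 held an embryo far from the others, where chance gives about 1 in 20. Control embryo 5 had the highest share of ribosomal protein UMIs among controls in All-Hypo cells (4.54%), in all cells (4.66%) and in neuron-like cells (4.46%), and the highest control levels of *Rps13* (622 CPM), *Rplp1* (1690.5) and *Rps27l* (119) in All-Hypo cells. *Eed-cKO* embryo 9 had the lowest mutant levels of *Rps13* (97.5), *Rplp1* (826) and *Rplp2* (508) there. *Eed-cKO* embryo 6 had the highest level of *Rpl13* (695). *Eed-cKO* embryo 1 had the lowest mutant share in cycling progenitor-like cells (4.64%), and control embryo 1 the lowest control share in cells of unnamed clusters (1.89%).

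For 14 members the genotype difference in astrocyte-like cells differed from that in neuron-like cells by the interaction test of edgeR at an adjusted p under 0.05. The log2 differences between them were 0.88 for *Rps27l*, 0.81 for *Rpl10a*, 0.63 for *Rpl12*, 0.55 for *Rplp1*, 0.54 for *Rps13* and *Rps18*, 0.53 for *Rpl41*, 0.51 for *Rps19*, 0.48 for *Rpl23*, *Rpl14* and *Rps12*, 0.46 for *Rpl8*, 0.43 for *Rps24* and 0.41 for *Rpl3*.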

How the results depend on the processing

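Alternatives that set aside control embryo 5 and *Eed-cKO* embryo 9, unnamed clusters or the *Tfap2b* cluster, and those on non-neural cells, were chosen after seeing the data. Counts of members in this section are given without the shares of all genes under the same setting, some of which stand above. In All-Hypo cells the 31 higher members became 9 with limma's TREAT test at 0.18, 48 with libraries as samples and 49 without both embryos; leaving out 1 embryo gave 21 (without control embryo 4) to 41 (without *Eed-cKO* embryo 9) higher and 2 lower. In neuron-like cells 39 were higher without both embryos, and leaving out 1 gave 16 to 29 higher and 2 to 6 lower (4 without control embryo 3, 6 without *Eed-cKO* embryo 5). In astrocyte-like cells leaving out 1 gave 28 to 50 higher and 2 lower, and in cycling cells 0 and 2. In non-neural cells DESeq2 called 15 higher, and endothelial-like cells alone gave 0 higher and 1 lower. Neuron- over astrocyte-like cells gave 14 higher and 2 lower with library size alone, 15 and 2 with the library size of other genes, 14 and 0 in cells of 2000 to under 4000 UMIs, and 3 lower without control embryo 5. Against cycling cells 1, 1 and 0 were higher under these settings, and 0 lower in the last, which rested on 2 control embryos. Against non-neural cells 26 were lower in the last. GABA over Glut neurons gave 1 higher with DESeq2, 1 with the filter on 15 UMIs alone and 0 at 2000 to under 4000 UMIs. Low over high depth gave 15, 16 and 9 higher with library size, library size of other genes and DESeq2. The interaction of astrocyte- and neuron-like cells gave 29 positive with DESeq2, 22 with the filter on 15 UMIs alone and 39 without both embryos, and that of non-neural cells 1 positive and 1 negative with DESeq2. The first 2 scalings moved the median of all genes by -0.21 and -0.25 against cycling cells and by 0.20 and 0.22 between depths, and DESeq2 by 0.18 there. Leaving out 1 embryo, the share differed between genotypes by 0.563 to 0.783 points in all cells, 0.487 to 0.720 in All-Hypo, 0.232 to 0.431 in neuron-like and 1.21 to 1.55 in astrocyte-like cells; in All-Hypo it was 0.834 without both embryos and 0.459 at 2000 to under 4000 UMIs.

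Of 2139 values of named genes under alternatives, 2000 kept direction and call, 101 lost the call, 23 gained it and 15 changed sign. *Rps27l* in neuron-like cells was 0.027 without the *Tfap2b* cluster. In astrocyte-like cells *Rpl38* was 0.14 without both embryos and ranged from -0.18 to 0.12 leaving out 1 embryo (above 0 without control embryo 5 or 6), and *Rpl39* ranged from -0.22 to 0.033 (above 0 without control embryo 6). In cycling cells *Rplp2* was -0.0020 with DESeq2 and ranged from -0.022 to 0.11 leaving out 1 embryo, *Rps4x* from -0.091 to 0.13, *Rpl3* from -0.052 to 0.19 (below 0 without control embryo 4) and *Rpl11* from -0.016 to 0.13 (below 0 without *Eed-cKO* embryo 2). None of these was called in the comparison as reported. The cause was not tested. No paired analysis was possible because no label ties a control embryo to an *Eed-cKO* embryo.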
